A study of Mus musculus with 9 samples.

Results

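The regulatory T cell (Treg) transcriptome of untreated, mock-transfected tumours is described here from 3 of the 9 RNA sequencing libraries of the study, the pools that the labels give as Tregs from Mock LLC. The members were taken by label, and the group itself was chosen with earlier results of these data known. LLC is the Lewis lung carcinoma line, derived from a lung tumour of a C57BL mouse and grown here in C57BL/6 mice. Each library was a pool of CD4+ GFP+ cells from 3 to 4 mice whose tumours were taken on day 14. The genotype is labelled wild-type and the treatment untreated, and the labels do not describe the reporter that gave GFP or the number of cells sorted. The other 2 groups, from LLC cells that expressed the integrin subunit β8 and were given either the anti-β8 antibody C6D4 or an isotype control, were not used. Every value is therefore a level in the sorted Treg pools of mock tumours, and none is a difference between treatments. Transcripts known from other cell types were also present in these pools and are described below. Levels are FPKM, fragments scaled by the authors to the length of the transcript and to the total of the library. They can so be set side by side between genes, with less certainty for very short ones. A value of 1 FPKM or more in each of the 3 pools is counted as detected, values under 0.001 FPKM are written as listed at 0, and ± gives the SD over 3 pools. The pools are labelled as separate pools of mice, and the SD covers the spread between pools of mice and between libraries together.

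Tregs are CD4+ T cells that restrain other immune cells. The transcription factor Foxp3 sets their identity, and the IL-2 receptor, of which Il2ra (CD25) is the high-affinity chain, sustains them. In tumours they commonly carry high levels of the inhibitory receptor CTLA-4 and of the costimulatory receptors OX40 (Tnfrsf4) and GITR (Tnfrsf18), both of which signal to NF-κB. They act through several routes, among them CTLA-4, interleukin 10, adenosine made by ectoenzymes, and latent TGF-β, which sits on the Treg surface bound to GARP (Lrrc32) and is freed by the integrin αvβ8.

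Promoter sequences are shown first because the promoters of detected genes and of genes listed at 0 had unlike medians of base composition, given here as a description with no test. The sequences are RefSeq's for mouse build GRCm38.p6, from 250 bases before to 50 bases after the first listed start of a gene, which need not be the start used in these cells. A promoter was matched for 16330 of 21822 protein-coding gene symbols. The 7008 matched genes detected here had a median of 22 CpG dinucleotides per window and a GC content of 61.0%. The 4860 matched genes listed at 0 in each pool had a median of 3 CpG dinucleotides and a GC content of 47.3%. The TATA letters TATAAA, searched on both strands, stood in 6.59% of the promoters of detected genes and in 24.4% of those of genes listed at 0, against 12.9% of all matched promoters. Among the 744 matched genes at 100 FPKM or more in each pool the share was 11.4%. A form of the NF-κB site, GGANNTTCC, was also searched on both strands and overlaps no TATAAA match in the windows shown; it stood in 4.78% of detected promoters, in 3.97% of promoters of genes listed at 0 and in 4.41% of all. The 4 windows below were chosen to show a CpG-rich promoter of a highly expressed factor (Id2), a promoter with several NF-κB letters (Nfkbia), the promoter of the defining factor (Foxp3) and that of a gene listed at 0 in each pool (Ly6g, a neutrophil surface protein). Each is written 5′ to 3′ on the strand of its gene, and capitals mark matches to GGANNTTCC or TATAAA.
Id2: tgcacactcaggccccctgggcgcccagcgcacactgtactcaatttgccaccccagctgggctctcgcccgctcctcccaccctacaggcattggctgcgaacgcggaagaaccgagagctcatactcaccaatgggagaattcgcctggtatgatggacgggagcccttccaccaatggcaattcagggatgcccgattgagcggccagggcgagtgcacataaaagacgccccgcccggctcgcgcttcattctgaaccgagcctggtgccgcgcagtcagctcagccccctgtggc
Nfkbia: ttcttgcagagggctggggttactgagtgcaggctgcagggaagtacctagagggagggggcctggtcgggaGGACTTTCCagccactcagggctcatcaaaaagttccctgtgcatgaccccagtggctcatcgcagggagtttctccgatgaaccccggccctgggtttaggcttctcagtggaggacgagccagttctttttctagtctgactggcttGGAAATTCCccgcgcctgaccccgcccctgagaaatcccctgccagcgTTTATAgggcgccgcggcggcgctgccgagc
Foxp3: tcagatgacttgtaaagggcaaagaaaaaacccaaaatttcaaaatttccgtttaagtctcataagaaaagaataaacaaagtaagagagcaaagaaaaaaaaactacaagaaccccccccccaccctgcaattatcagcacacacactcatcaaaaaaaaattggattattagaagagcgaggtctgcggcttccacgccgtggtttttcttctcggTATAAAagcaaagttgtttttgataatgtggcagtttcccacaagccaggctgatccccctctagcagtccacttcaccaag
Ly6g: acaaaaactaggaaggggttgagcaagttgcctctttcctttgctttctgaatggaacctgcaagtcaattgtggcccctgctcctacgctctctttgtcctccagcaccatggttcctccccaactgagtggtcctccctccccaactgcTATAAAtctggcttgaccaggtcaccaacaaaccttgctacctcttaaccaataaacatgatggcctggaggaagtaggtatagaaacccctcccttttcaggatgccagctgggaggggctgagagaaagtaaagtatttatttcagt
The Id2 window (chr12:25096043-25096342, minus strand) held 21 CpG and neither motif. The Nfkbia window (chr12:55492598-55492897, minus strand) held 15 CpG and 2 places with GGANNTTCC, which begin 178 and 29 bases before the start, and 1 TATAAA match on the opposite strand. The Foxp3 window (chrX:7579426-7579725, plus strand) held 6 CpG, a GC content of 40.7%, no GGANNTTCC and 1 TATAAA that begins 32 bases before the start. The Ly6g window (chr15:75155011-75155310, plus strand) held 1 CpG and 1 TATAAA. The counts by list leave out genes of 1 chromosome and place each gene in 1 list only, unlike the shares over all promoters above. Of the promoters so counted, GGANNTTCC stood in 5 of 32 of cytokine receptors and 4 of 39 of NF-κB, AP-1, NFAT, early response and STAT factors. It stood in 2 of 58 of lineage factors, 0 of 21 of TNF receptors and 0 of 21 of checkpoints. A match is a description of letters and not evidence of binding.

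Of the markers of the Treg label, all 5 were present in every pool. Their presence in a bulk pool does not measure the purity of the sort. Foxp3 (chrX:7573644-7595245, GRCm38, gene bounds from GENCODE M21) had 114, 89.96 and 93.8 FPKM in pools 1, 2 and 3. Il2ra (chr2:11642807-11693193) had 104, 114 and 116 FPKM. These 2 genes lay at similar levels, ranked 1053 and 969 of 21855 nuclear protein-coding genes by mean, and Il2ra was below Foxp3 in pool 1 and above it in pools 2 and 3. Ctla4 (chr1:60887000-60915832) had 369, 607 and 408 FPKM, rank 247. Tnfrsf4 (chr4:156013843-156016612) had 865, 1179 and 922 FPKM, rank 91, and its neighbour Tnfrsf18 (chr4:156026164-156028895) had 872, 1010.4 and 783 FPKM, rank 107. Pool 2 was highest for Ctla4, Tnfrsf4 and Tnfrsf18 and lowest for Foxp3. Within each pool, Ctla4, Tnfrsf4 and Tnfrsf18 stood well above Foxp3: Tnfrsf4 was 7.61, 13.1 and 9.84 times as high as Foxp3, and Ctla4 3.24, 6.75 and 4.35 times. Cd4 had 75.1, 86.8 and 72.5 FPKM, while of the genes that mark cytotoxic T cells Cd8a had 0, 2.35 and 0 and Cd8b1 16.8, 20.97 and 28.3 FPKM. Cd4 was 2.57 to 4.47 times as high as Cd8b1.

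In all, 8835 of 21855 nuclear protein-coding genes were detected (40.4%), 4613 reached 10 FPKM in each pool (21.1%) and 943 reached 100 FPKM in each pool (4.31%). These shares are the background against which the lists below are read. The median level of a detected gene was 14.5 FPKM, and 6935 genes were listed at 0 in each pool. The 100 most abundant genes held 28.0%, 28.3% and 27.8% of the summed coding FPKM in the 3 pools. Those at the top were genes of the cytoskeleton, iron storage, antigen presentation and translation. Tmsb4x, which encodes an actin-sequestering peptide, had 5964, 6963 and 6764 FPKM and was first in each pool. The ferritin heavy chain gene Fth1 had 5238, 4882 and 4861 FPKM and was second in each pool, and Pfn1, for the actin-binding profilin, had rank 3 in each pool at 3606, 4218 and 3888 FPKM. Then followed B2m, the light chain of MHC class I, Rpl32, Rps27, the histone gene H3f3b, the AP-1 factor Junb, the small glycoprotein gene Cd52 and Actb. Among the next 10 by mean were Crip1, Ftl1, Srgn, H2-D1, Rpl41, Ifi27l2a, H2-K1, Rps29 and Rps14, between 2507 and 2079 FPKM. Ribosomal protein genes made up 6 of the highest 20 and 30 of the highest 100. Junb, which also heads the dissociation and heat shock list below, stood among structural genes at the top of the range. Of the genes in the lists below, 26 lay in the highest 100.

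**Figure D1:**
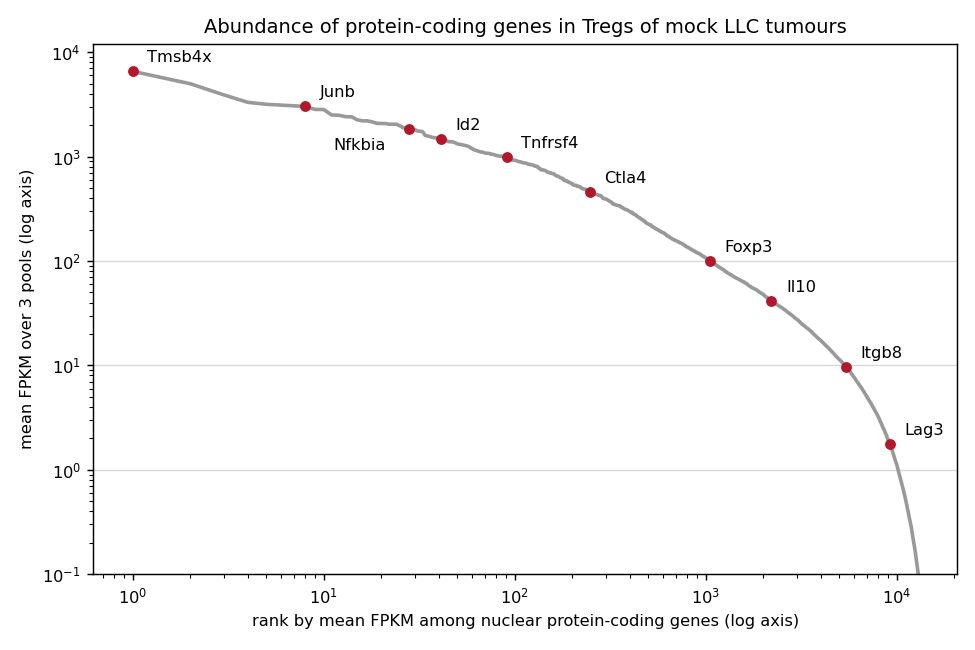
Mean FPKM over 3 pools (vertical, log axis) against the rank of each nuclear protein-coding gene (horizontal, log axis), with 10 genes marked and grey lines at 1, 10 and 100 FPKM. Tnfrsf4 and Ctla4 lie high on the curve at ranks 91 and 247, Foxp3 sits near 100 FPKM at rank 1053, and Itgb8 lies near 10 FPKM at rank 5438.

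T cell receptor genes were among the most abundant surface transcripts. In that list, 19 of 20 measured genes were detected and 12 reached 100 FPKM in each pool, and the list median was 143 FPKM. The constant region Trac, part of the receptor α chain, had 1701, 1991 and 1642 FPKM, and the β constant regions Trbc2 and Trbc1 averaged 566 ± 41.1 and 414 ± 38.5 FPKM. The CD3 signalling chains Cd3g and Cd3e averaged 650.3 ± 58.6 and 616 ± 17.03 FPKM, Cd3d 299 ± 26.1 and the ζ chain Cd247 141 ± 14.1. Ptprcap, a protein associated with CD45, and the adhesion receptor Cd2 averaged 986 ± 94.3 and 882 ± 65.5 FPKM. Trac, Ptprcap, Cd2 and Cd3g each had their highest value in pool 2, as did 16 of the 19 members with a mean of at least 1 FPKM; pool 2 was also highest for 38.6% of all coding genes at that level.

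The TNF receptor superfamily was led by 3 costimulatory receptors that stood far above the next member. Of 25 measured members, 16 were detected (64.0%, against 40.4% of coding genes), 8 reached 10 FPKM and 3 reached 100 FPKM in each pool, with a median of 3.00 FPKM. Tnfrsf9 (4-1BB, a receptor of activated T cells) had 859.6, 919 and 883 FPKM, with an SD of 29.9. Tnfrsf4 was above Tnfrsf9 in each pool, but the ranges of Tnfrsf4, Tnfrsf18 and Tnfrsf9 overlapped, and Tnfrsf18 and Tnfrsf9 changed places between pools. The next was Tnfrsf13b (TACI, a receptor known from B cells) at 85.9, 50.9 and 65.6 FPKM, 13.2 times lower in the mean than Tnfrsf9 and lower in each pool. Cd27, which binds CD70, averaged 59.5 ± 18.02 FPKM and the death receptor Fas 53.7 ± 16.1 FPKM. Tnfrsf12a and Tnfrsf25 averaged 50.9 ± 15.3 and 37.9 ± 6.70 FPKM, and the 4 genes Tnfrsf13b, Cd27, Fas and Tnfrsf12a overlapped between pools. Tnfrsf17, the plasma cell receptor BCMA, was listed at 0. The ligands of Tnfrsf4 and Tnfrsf18 were far lower than these receptors in the same libraries: Tnfsf4, the OX40 ligand, averaged 4.37 ± 1.08 FPKM, and Tnfsf18, the GITR ligand, was listed at 0 in each pool.

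Among immunoglobulin-type checkpoints and CD28 family members, 23 of 29 were detected (79.3%) and 3 reached 100 FPKM in each pool, with a median of 15.5 FPKM. Ctla4 led in each pool, 2.66 times above the next gene in the mean. Tigit, an inhibitory receptor for nectin-type ligands, had 177, 209 and 133 FPKM, and the costimulatory receptor Icos had 173, 164 and 138 FPKM. Their ranges overlapped, whereas Pdcd1 (PD-1) lay below Icos in each pool at 89.6, 105 and 106 FPKM. Cd48 averaged 76.4 ± 6.21 FPKM and Cd28, which competes with CTLA-4 for the same ligands, 47.7 ± 5.44 FPKM. Ctla4 exceeded Cd28 8.18, 11.3 and 9.26 times. Cd200, whose product inhibits myeloid cells, had 32.8, 69.2 and 75.2 FPKM and Slamf6 17.7, 45.6 and 42.1 FPKM, and for both the value of pool 1 stood below those of pools 2 and 3. Lag3, an inhibitory receptor that binds MHC class II, was low at 2.39, 2.37 and 0.566 FPKM and did not reach 1 FPKM in pool 3. Havcr1 was listed at 0.

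Cytokine receptors were broadly present: 30 of 41 were detected (73.2%), 20 reached 10 FPKM and 6 reached 100 FPKM in each pool, with a median of 11.4 FPKM. Ifngr1, the ligand-binding chain of the interferon-γ receptor, had 381, 523 and 399.6 FPKM and the common γ chain Il2rg had 441, 417 and 359 FPKM. The β chain Il2rb had 301, 290.5 and 234 FPKM. Over the IL-2 receptor, the order Il2rg, Il2rb, Il2ra held in each pool, with Il2rg 3.10 to 4.24 times and Il2rb 2.02 to 2.90 times the level of Il2ra. Il1r2, a decoy receptor that binds IL-1 without signalling, had 257, 211 and 216 FPKM, while the signalling receptor Il1r1 had 1.13, 0.845 and 0.201 FPKM. Il1r2 was above the IL-33 receptor gene Il1rl1 (ST2) in each pool, which averaged 14.9 ± 3.71 FPKM. Il21r averaged 154 ± 17.3 FPKM, and Crlf2, a receptor chain for TSLP, had 157, 93.3 and 91.1 FPKM, with pool 1 above the others. The IL-7 receptor chain Il7r, which is typically low on Tregs, averaged 35.5 ± 11.8 FPKM. The TGF-β receptor genes Tgfbr2 and Tgfbr1 averaged 16.99 ± 5.87 and 6.64 ± 2.29 FPKM.

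Chemokine and chemoattractant receptors were led by 2 genes. Of 28 measured, 23 were detected (82.1%) and 13 reached 10 FPKM in each pool, with a median of 11.6 FPKM. Ccr7, which guides cells to lymphoid tissue, had 642, 830.1 and 727 FPKM, rank 145. Ccr8, a receptor known to mark tumour Tregs (chr9:120092114-120094906), had 391, 522 and 347 FPKM, rank 283. Ccr7 was above Ccr8 in each pool, and the pools did not overlap. The next members lay 5.75 times below Ccr8: Gpr183 averaged 73.1 ± 11.3 FPKM, Cxcr4 72.2 ± 4.63 FPKM, the leukotriene B4 receptor gene Ltb4r1 61.2 ± 3.23 FPKM and Cxcr3, a receptor of type 1 T cells, 51.00 ± 18.1 FPKM. Ccr4, a further Treg homing receptor, averaged 14.4 ± 3.32 FPKM, Ccr6 34.1 ± 7.53 FPKM and Ccr2 25.7 ± 2.24 FPKM. The neutrophil chemokine receptor genes Cxcr1 and Cxcr2 were listed at 0 in each pool. The CCR8 ligand gene Ccl1 had 20.6, 4.45 and 0 FPKM and was listed at 0 in pool 3 only.

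Adhesion molecules held some of the highest surface values, and 35 of 41 were detected (85.4%), with 13 at 100 FPKM or more in each pool and a median of 37.4 FPKM. Cd52 averaged 2835 ± 344 FPKM and Ly6e 1446 ± 80.5 FPKM, followed by the P-selectin ligand gene Selplg at 485 ± 24.6 and the tetraspanin gene Cd53 at 392 ± 45.4 FPKM. Itgb7, an integrin subunit of gut-homing cells, averaged 351 ± 47.8 FPKM and Ly6a (Sca-1) 350.0 ± 75.2 FPKM. Those values were not separated, since Itgb7, Ly6a and Itgav overlapped between pools. Of the α partners of β7, Itgae (CD103) had 56.5, 49.3 and 44.3 FPKM and Itga4 had 16.8, 16.2 and 15.7 FPKM, both below Itgb7 in each pool. Klrg1, a marker of terminally differentiated effector cells, averaged 216 ± 17.5 FPKM, Cd69 139.9 ± 17.7 FPKM and Cd44 78.7 ± 4.64 FPKM. The integrin subunit gene Itgb6 was listed at 0.

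The integrin αvβ8, which the study is about, was unequal in its chains. The αv gene Itgav had 373, 310.1 and 337 FPKM, rank 349, and the β8 gene Itgb8 (chr12:119158022-119238802) had 11.5, 7.24 and 9.91 FPKM, rank 5438. Itgav was 32.3, 42.8 and 34.0 times as high as Itgb8 in the 3 pools. The αv chain also pairs with other β chains, of which Itgb1 averaged 28.96 ± 7.18 FPKM, Itgb3 5.31 ± 0.597 FPKM and Itgb5 4.48 ± 2.52 FPKM. Tgfb1, the ligand whose latent form αvβ8 activates, had 127, 90.99 and 95.3 FPKM, whereas Tgfb3 averaged 1.82 ± 1.39 FPKM and Tgfb2 had 0, 0.0466 and 0 FPKM. Lrrc32 (GARP), which tethers latent TGF-β1 to the Treg surface, had 55.2, 62.3 and 48.2 FPKM, and Nrros, its counterpart known from myeloid cells, had 37.5, 46.96 and 31.8 FPKM. Tgfb1 was above Lrrc32, and Lrrc32 above Itgb8, in each pool. Downstream of the receptors, the signal transducers Smad2, Smad3 and Smad4 averaged 20.3 ± 0.726, 14.4 ± 1.69 and 20.6 ± 5.51 FPKM, and the inhibitory Smad7 stood at 94.2 ± 1.64 FPKM with values of 95.7, 94.5 and 92.5.

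**Figure D2:**
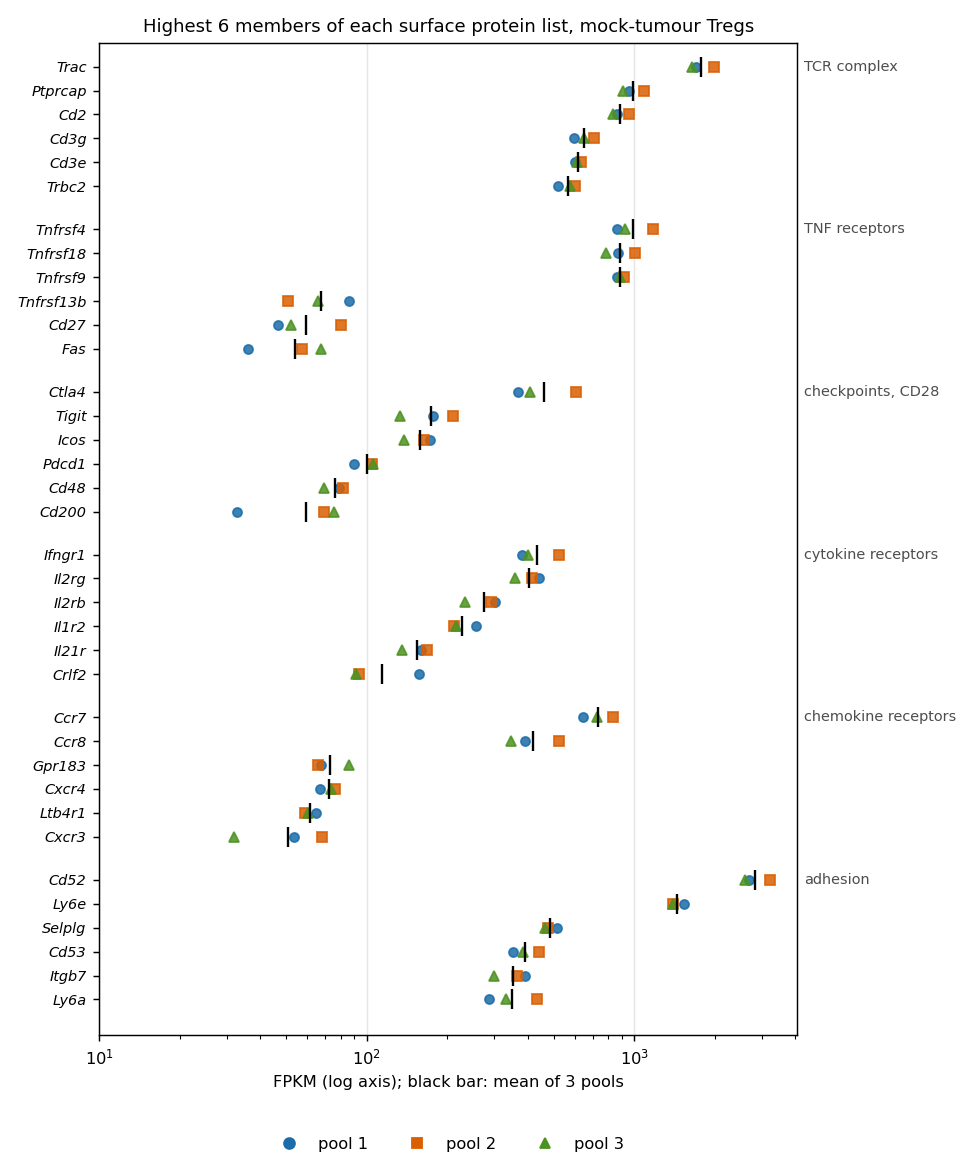
FPKM (horizontal, log axis) of the highest 6 members of each of 6 surface protein lists in pool 1 (circles), pool 2 (squares) and pool 3 (triangles), with a black bar at the mean. Tnfrsf4, Tnfrsf18 and Tnfrsf9 stand apart from the other TNF receptors, as do Ccr7 and Ccr8 from the other chemokine receptors, while Cd200, Crlf2 and Cxcr3 show wide spreads between pools.

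Lineage and Treg transcription factors were mostly detected, 64 of 73 (87.7%), with 43 at 10 FPKM and 11 at 100 FPKM or more in each pool and a median of 21.9 FPKM. The highest were not the factors that name the lineage. Id2, an inhibitor of E-protein factors linked to effector Tregs, had 1377, 1507 and 1507 FPKM, rank 41. Bhlhe40, a repressor that limits IL-10 in T cells, had 1128, 893 and 968 FPKM and Cebpb 583, 651 and 634 FPKM. The order Id2, Bhlhe40, Cebpb, Rora held in each pool without overlap. Rora, a nuclear receptor of tissue lymphocytes, averaged 385 ± 20.2 FPKM, Nfil3 295 ± 20.1 FPKM and Klf13 287 ± 33.4 FPKM. Batf, which supports tissue Treg differentiation, averaged 141 ± 13.96 FPKM and Gata3, also used by tissue Tregs, 92.7 ± 13.2 FPKM. Of the Ikaros family, Ikzf2 (Helios) had 45.5, 57.1 and 59.3 FPKM and Ikzf4 (Eos) 42.4, 42.01 and 30.1 FPKM, both factors of the Treg programme. Ikzf2 was the higher of these in each pool, by 1.07 to 1.97 times. Id3 averaged 30.9 ± 2.39 FPKM and stood 41.4 to 52.9 times below Id2. Prdm1 (Blimp-1) had 12.5, 16.2 and 16.2 FPKM, Maf 32.2, 27.04 and 26.7 FPKM and Irf4 29.4, 24.99 and 24.4 FPKM. These effector factors all lay below Foxp3 in each pool. Pax5 of the B lineage did not reach 1 FPKM in any pool.

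Factors of receptor signalling were detected almost without exception: 51 of 52, with 48 at 10 FPKM and 16 at 100 FPKM or more in each pool and a median of 63.8 FPKM. Junb, an AP-1 subunit, had 2731, 3437 and 2909 FPKM, rank 8, and Nfkbia, the inhibitor IκBα that NF-κB itself induces, had 1881, 1925 and 1770.1 FPKM, rank 28. Jund followed at 1413, 1253 and 1495 FPKM. The order Junb, Nfkbia, Jund held in each pool without overlap. Nr4a1, an immediate target of antigen receptor signalling, averaged 551 ± 44.6 FPKM, the cAMP-responsive factor Crem 485 ± 48.97 FPKM and Stat3 469.8 ± 89.1 FPKM. The NF-κB subunits Nfkb2, Rela, Nfkb1, Relb and Rel averaged 136 ± 19.2, 134 ± 22.1, 107 ± 9.95, 91.4 ± 9.40 and 37.4 ± 0.982 FPKM. Nfkbia was thus 15.7 to 20.2 times as high as Nfkb1. Stat5a and Stat5b, which carry the IL-2 signal, averaged 97.3 ± 12.6 and 31.9 ± 4.03 FPKM. Only Egr3 was not detected, at 1.29, 0.501 and 1.11 FPKM, and Egr2 had 6.53, 4.20 and 8.55 FPKM. Several genes of this list are also known to be induced while tissue is dissociated: a list of 23 such genes and heat shock genes had all 23 at 10 FPKM or more in each pool and 6 among the highest 100 genes. Junb, Nfkbia and Jund head that list as well, and the chaperone gene Hspa8 averaged 1121 ± 83.4 FPKM, Hsp90aa1 1032 ± 126 FPKM and Hsp90ab1 1009 ± 84.00 FPKM. The summed level of the list was 12353, 12549.8 and 12250.4 FPKM in the 3 pools, and the part of tissue handling in it was not tested.

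**Figure D3:**
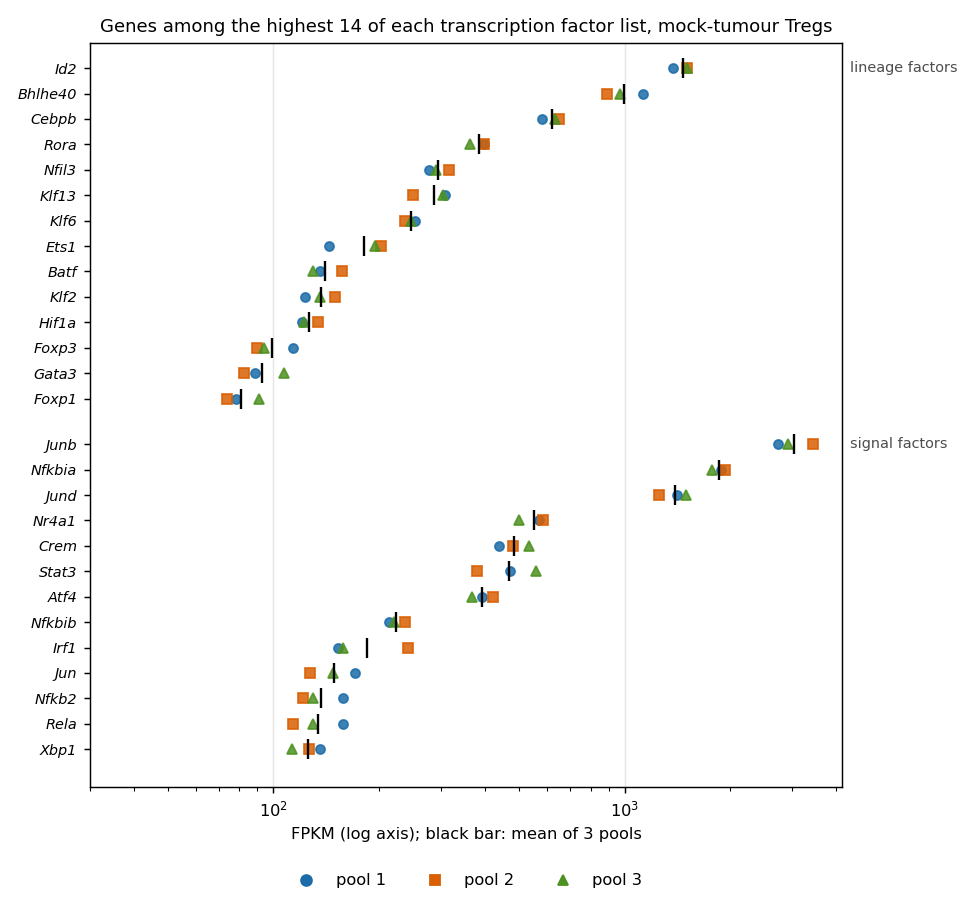
FPKM (horizontal, log axis) of genes among the highest members of the lineage factor list and of the list of NF-κB, AP-1, NFAT, early response and STAT factors, in pool 1 (circles), pool 2 (squares) and pool 3 (triangles), with a black bar at the mean. Junb, Nfkbia, Id2 and Jund lie above 1000 FPKM, and Foxp3 lies near 100 FPKM beside Hif1a and Gata3.

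Cytokine genes were detected for 19 of 47, or 40.4%, the same share as over all coding genes, with a median of 0.791 FPKM, and 7 reached 10 FPKM in each pool. Mif, a cytokine that most cells make, averaged 944 ± 96.7 FPKM. Tgfb1 followed, and Areg, the EGF-receptor ligand amphiregulin of tissue-repair Tregs, had 89.7, 128 and 81.2 FPKM. Ebi3, a chain of IL-27 and IL-35, had 92.8, 94.2 and 89.7 FPKM. The values of Tgfb1, Areg and Ebi3 overlapped. Il10, the classical suppressive cytokine, had 32.2, 60.02 and 31.7 FPKM, and pool 2 stood above the others. Its level was below that of Ebi3 in each pool. Il16 averaged 30.3 ± 5.56 FPKM. Il2 itself, which Tregs typically do not make, had 0.662, 0.382 and 0.44 FPKM. Il4, Il6, Il9, Il3, Il21, Il24, Csf3, Ereg and Ifnb1 were listed at 0 in each pool. Il12a, the other chain of IL-35, had 0, 1.16 and 0.102 FPKM.

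Ligands of the TNF family were detected for 11 of 17 genes (64.7%), with a median of 2.97 FPKM. Ltb, lymphotoxin β, made up 94.3% of the summed level with 1310.5, 1231 and 1079 FPKM. The remainder was low: Tnfsf9 averaged 16.6 ± 3.30 FPKM, Cd70 9.33 ± 3.81 and Tnfsf11 (RANKL) 9.21 ± 0.658. Tnf had 16.7, 9.51 and 1.78 FPKM and Lta 3.39, 13.5 and 6.56 FPKM, both with wide spreads over the pools. Tnfsf15 was listed at 0, as Tnfsf18 was.

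Chemokine genes were detected for 14 of 35, with a median of 1.81 FPKM. Ccl5, an attractant of T cells and monocytes, had 1457, 1538 and 1177 FPKM, rank 45, and made up 74.2% of the summed level. Cxcl10, a ligand of CXCR3 that interferons induce, had 144, 189.8 and 116 FPKM, and Cxcl2, a neutrophil attractant, had 103, 76.05 and 73.99 FPKM. Ccl5, Cxcl10 and Cxcl2 kept this order in each pool. Ccl4, Ccl3 and Xcl1 averaged 52.3 ± 11.5, 36.4 ± 11.5 and 29.1 ± 11.97 FPKM and overlapped. Listed at 0 were Ccl11, Ccl19, Ccl20, Ccl24, Ccl28, Cxcl5, Cxcl13, Cxcl15 and Ppbp. Ccl17, a CCR4 ligand, was uneven, with 11.5, 24.5 and 0.336 FPKM.

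Granule proteins were detected for 16 of 23 genes (69.6%), 6 of them at 100 FPKM or more in each pool, with a median of 22.6 FPKM. Srgn, for the proteoglycan serglycin that packs granule contents, averaged 2416 ± 187 FPKM, rank 13. Ctla2a, a cathepsin inhibitor, had 639, 610.5 and 605 FPKM. Gzmb, the protease granzyme B (chr14:56258838-56262260), had 433, 526 and 492 FPKM, rank 237. Perforin, the pore former through which granzymes enter target cells, was low, since Prf1 had 2.20, 2.67 and 0 FPKM and was listed at 0 in pool 3. Gzma had 9.70, 11.2 and 3.96 FPKM, Gzmc 11.3, 9.39 and 25.1 FPKM and Gzmk 3.68, 2.85 and 0 FPKM, so that granzyme B alone stood high. Gzmd and Gzmg were listed at 0. The cathepsin genes Ctss, Ctsb and Ctsw averaged 329.5 ± 47.4, 177 ± 30.4 and 156 ± 31.7 FPKM.

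Of the other secreted or matrix-acting proteins, 37 of 49 were detected (75.5%) and 15 reached 100 FPKM in each pool, with a median of 30.8 FPKM. After B2m came S100a10, S100a11, S100a6 and S100a4, calcium-binding proteins that are high in activated T cells, at 2075 ± 226, 1593 ± 101, 1289 ± 18.9 and 1109 ± 102 FPKM. Lgals1 (galectin 1, a lectin used in suppression) averaged 1074 ± 22.5 FPKM. Some secreted products that are not textbook T cell genes were also high. Penk, the enkephalin precursor (chr4:4133531-4138819), had 420.2, 446 and 568 FPKM, rank 239. Tff1, a trefoil peptide known from stomach mucosa (chr17:31161395-31165277), had 241, 177 and 302 FPKM, rank 479. The metallothioneins Mt1 and Mt2, which bind zinc, averaged 768 ± 43.4 and 240.3 ± 54.8 FPKM. Inhba and Retnla were listed at 0. Penk, Tff1 and the metallothioneins lie outside the naming rule and were chosen after their values were seen.

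**Figure D4:**
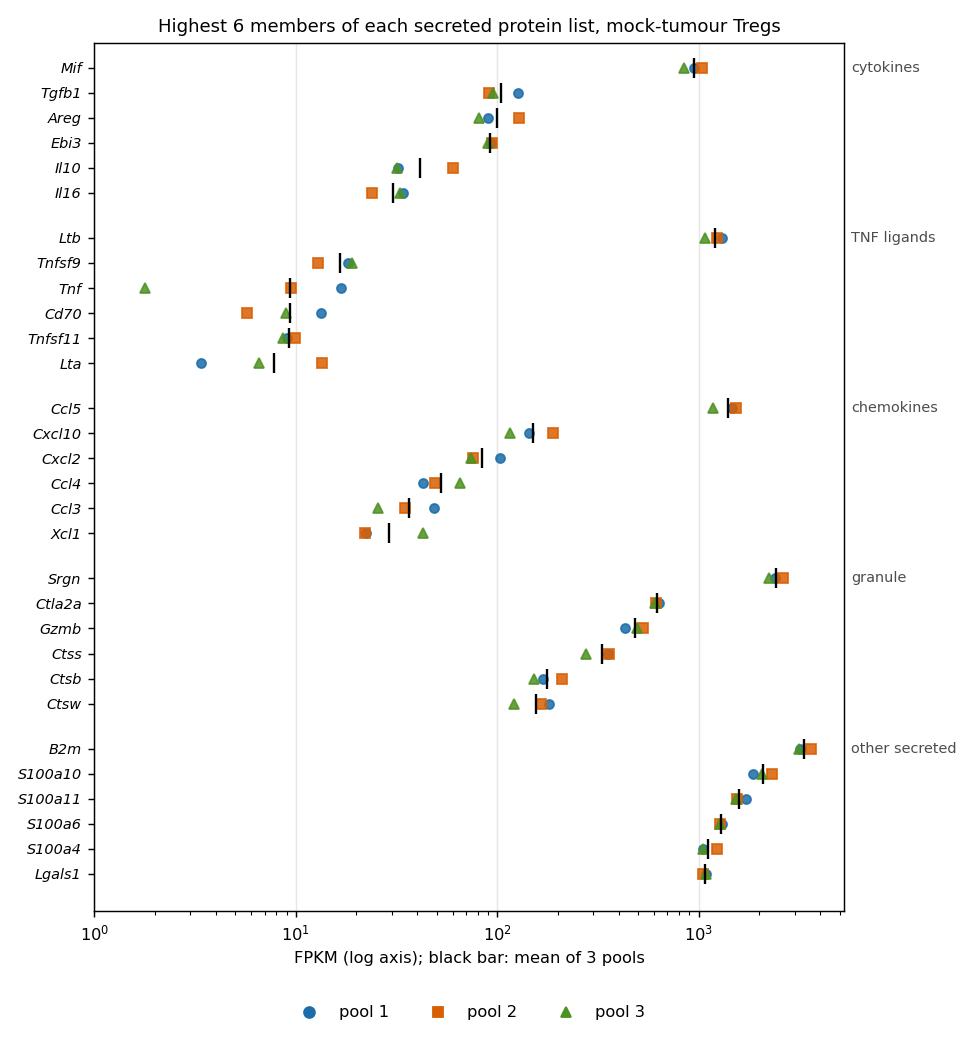
FPKM (horizontal, log axis) of the highest 6 members of each of 5 secreted protein lists in pool 1 (circles), pool 2 (squares) and pool 3 (triangles), with a black bar at the mean. Mif, Ltb, Ccl5 and Srgn each lead their list, Gzmb lies near 500 FPKM, and Tnf and Lta show the widest spreads.

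Taken by mechanism of suppression, 17 of 22 genes were detected (77.3%) and 12 reached 10 FPKM in each pool, with a median of 21.3 FPKM. Gzmb, Ctla4 and Itgav led, and Tgfb1, Areg and Ebi3 came next. Of the ectoenzymes that make adenosine, Nt5e (CD73) had 31.3, 28.3 and 22.2 FPKM and Entpd1 (CD39) had 7.02, 20.1 and 8.11 FPKM. Nt5e was above Entpd1 in each pool, by 1.41 to 4.46 times, and Entpd1 in pool 2 was well above its other values. The adenosine receptor gene Adora2a had 32.4, 45.7 and 39.3 FPKM. Fgl2, a soluble suppressive mediator, averaged 15.3 ± 3.67 FPKM, and Ido1 was listed at 0.

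The naive and central memory list gave a mixed picture, with 13 of 15 detected (86.7%) and a median of 35.4 FPKM. Ccr7 made up 59.1% of its summed level. Klf2, which drives S1pr1, averaged 136 ± 13.3 FPKM and S1pr1 49.3 ± 7.19 FPKM. Foxp1 and Satb1 averaged 80.9 ± 8.78 and 69.2 ± 6.67 FPKM. Tcf7 and Lef1, factors of naive and memory cells, averaged 18.1 ± 6.12 and 35.4 ± 7.06 FPKM, and Bach2 had 0.52, 2.37 and 2.98 FPKM. Ccr7 thus stood apart from the other genes of its list.

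Cell cycle genes were detected for 28 of 32 (87.5%), with a median of 11.1 FPKM. Hmgb2 and Pcna, the replication clamp, averaged 169 ± 34.6 and 141 ± 12.6 FPKM, and Cenpa and Stmn1 86.3 ± 23.01 and 78.5 ± 17.9 FPKM. Mcm6, of the replicative helicase, averaged 60.7 ± 6.36 and Birc5 35.3 ± 9.23 FPKM. Mitotic genes lay at unlike levels. Cenpa and Birc5 were among the highest 6 of the list, while Cdk1 and Ccnb1 were lower, at 8.68, 16.9 and 13.2 and 0.602, 2.92 and 3.10 FPKM. The summed level was 634 FPKM in pool 1, 972 in pool 2 and 928 in pool 3, and pool 1 was highest for 1 of 30 members with a mean of at least 1 FPKM, whereas it was highest for 32.6% of all coding genes at that level.

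All 17 glycolysis genes were detected, with a median of 97.4 FPKM. Gapdh averaged 1811 ± 146 FPKM, the pyruvate kinase gene Pkm 1009.5 ± 94.8 and Ldha, for lactate dehydrogenase, 801 ± 118. Aldoa, Eno1 and Tpi1 averaged 896 ± 56.03, 748 ± 19.04 and 343 ± 57.3 FPKM. The glucose transporter gene Slc2a1 averaged 43.9 ± 10.5 FPKM against 6.90 ± 2.39 FPKM for Slc2a3. Genes induced by type I interferon were detected for 24 of 29 (82.8%), with a median of 10.04 FPKM, and Bst2, Isg20 and Isg15 averaged 234 ± 21.2, 179 ± 54.04 and 154 ± 9.05 FPKM. Zbp1 and Ifi35 averaged 95.9 ± 28.4 and 76.5 ± 13.6 FPKM. Summed levels over the pools lay between 5923 and 6598 FPKM for glycolysis and between 1169 and 1350 FPKM for the interferon list.

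Cytokines and factors of other helper lineages were lower. Of 17 genes, 9 were detected (52.9%) and 2 reached 10 FPKM in each pool, with a median of 2.97 FPKM that became 1.93 FPKM without pool 2. Gata3, of the type 2 lineage and of tissue Tregs, had 88.4, 82.2 and 107 FPKM and Tbx21 (T-bet, type 1) had 18.7, 26.00 and 29.2 FPKM. Gata3 was 3.16 to 4.72 times as high as Tbx21. Il17a, of the type 17 lineage, had 5.54, 18.98 and 16.1 FPKM. Csf2 averaged 10.9 ± 2.41, Tnf 9.35 ± 7.48 and Cxcr5, of follicular cells, 7.28 ± 1.10 FPKM. Ifng had 5.45, 9.13 and 2.15 FPKM. Il4 and Il21 were listed at 0.

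Transcripts known from other cell types were present at varying levels, and in a bulk sample fewer cells of a type and less RNA per cell cannot be told apart. Over 11 marker lists, 60 of 142 distinct genes were detected (42.3%), a share near the 40.4% of all coding genes. The macrophage and monocyte list had 17 of 20 detected, and its summed level was 1185 FPKM in pool 1, 793 in pool 2 and 820 in pool 3. Lyz2 (lysozyme) had 422, 227 and 266 FPKM, Ctss 353, 361 and 275 FPKM and Apoe 132, 72.5 and 86.8 FPKM. Cd14, Stab1 and Cd68 averaged 61.4 ± 22.4, 39.9 ± 13.3 and 27.6 ± 3.87 FPKM. The defining receptor Csf1r had 12.7, 2.31 and 3.11 FPKM, and Adgre1 (F4/80) and Mrc1, which also mark macrophages, were below 1 FPKM in every pool. Adgre1 had 0.401, 0 and 0.1 FPKM and Mrc1 had 0, 0 and 0.364 FPKM. Pool 1 was highest for 16 of the 18 members with a mean of at least 1 FPKM, against 32.6% of all coding genes at that level. Beside these, the T cell gene Cd3e was 1.43, 2.79 and 2.30 times as high as Lyz2.

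The dendritic cell list, with 12 of 15 detected, summed to 4640, 2845 and 3124 FPKM, most of it MHC class II. Cd74, the class II invariant chain, had 2287, 1427 and 1561 FPKM, rank 31, H2-Ab1 1093, 630.4 and 704, H2-Aa 577, 374 and 418 and H2-Eb1 612, 337 and 385 FPKM. Pool 1 was highest for each of these 4 genes. Class II genes are expressed by B cells and macrophages as well, and the part of any of these cells in the values was not tested. Of the other members, Zbtb46 averaged 19.6 ± 1.56 FPKM, Cd209a 13.7 ± 3.33 and Flt3 2.74 ± 1.34 FPKM. In the natural killer and innate lymphoid list, 5 of 13 were detected and the sum was 635, 315 and 381 FPKM. Tyrobp had 367, 196 and 207 FPKM and Fcer1g 223, 97.5 and 133 FPKM, both signalling adaptors that myeloid cells also use, and pool 1 was again the highest. Klrd1, Klrk1, Klra7 and Klrc1 averaged 17.3 ± 8.74, 8.04 ± 3.36, 2.54 ± 1.79 and 2.53 ± 2.22 FPKM, Ncr1, a defining receptor, had 0, 0.872 and 0 FPKM, and Klra8 was listed at 0.

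B and plasma cell genes were carried mainly by immunoglobulin constant regions, with 7 of 14 detected and sums of 653, 1187 and 755 FPKM. Igkc, of the κ light chain, had 402, 809 and 443 FPKM and Ighm, of the μ heavy chain, 214, 284 and 271 FPKM. The B cell receptor partner Cd79a had 6.61, 29.9 and 14.02 FPKM, Cd79b 11.3, 13.7 and 4.77, Fcmr 8.19, 7.54 and 4.95 and Blk 4.48, 7.27 and 7.46 FPKM. Jchain, the joining chain of secreted antibody, had 0, 18.7 and 0 FPKM and thus appeared in pool 2 alone, where Mzb1 was also highest. Pool 2 was highest for 8 of the 11 members with a mean of at least 1 FPKM, against 38.6% of all coding genes at that level. Pax5, which defines the lineage, had 0, 0.0194 and 0.0105 FPKM.

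Red cell genes varied widely between pools. The globin genes Hbb-bs, Hba-a1, Hba-a2 and Hbb-bt were the 4 detected of 12, and Hbb-bs had 85.4, 26.9 and 115 and Hba-a1 65.4, 19.6 and 108 FPKM. The list summed to 232, 63.6 and 316 FPKM, lowest in pool 2, with Pf4 and Alas2 at 4.16, 0 and 0 and 3.38, 0 and 0.23 FPKM and Ppbp listed at 0. CD8 and γδ T cell genes summed to 68.4, 73.8 and 62.3 FPKM, with 4 of 9 detected. Cd8b1 had 16.8, 20.97 and 28.3 FPKM, Tcrg-C1 18.4, 30.2 and 15.7 FPKM and Trdc 14.6, 9.69 and 5.73 FPKM. Klrk1, Sox13 and Crtam averaged 8.04 ± 3.36, 2.39 ± 1.48 and 1.51 ± 0.949 FPKM. The 2 CD8 genes thus differed: Cd8b1 was detected in each pool, whereas Cd8a was listed at 0 in pools 1 and 3 and had 2.35 FPKM in pool 2.

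Stromal, tumour and granulocyte genes were mostly under 1 FPKM or listed at 0. In the fibroblast list, 4 of 12 were detected and Thy1, which T cells also express, made up 93.9% of a sum of 176, 126 and 139 FPKM. Dcn, Col3a1 and Lum averaged 3.46 ± 2.19, 3.42 ± 0.765 and 1.46 ± 0.376 FPKM, Col1a2 and Mgp 0.243 ± 0.236 and 0.221 ± 0.382 FPKM, and the defining genes Pdgfra, Pdgfrb, Fap and Postn were listed at 0. The epithelial and tumour list summed to 890.0, 859 and 969 FPKM, of which Vim, which lymphocytes also express, made up 94.8%. Krt18 had 24.6, 26.9 and 15.4 FPKM and Epcam 8.32, 23.2 and 19.8 FPKM. Ccnd1, Ctgf and Cyr61 averaged 3.17 ± 2.30, 1.27 ± 0.482 and 1.14 ± 1.04 FPKM, and Krt5, Krt7, Krt19, Sftpc and Scgb1a1 were listed at 0. For endothelium, 1 of 10 was detected, Pecam1 at 10.7, 13.5 and 11.98 FPKM, and the list summed to 13.3, 14.4 and 12.4 FPKM. Vwf, Eng, Cdh5, Cldn5 and Emcn averaged under 1 FPKM, and Plvap was listed at 0. Of 13 neutrophil genes, Ltf alone was detected at 14.2, 11.1 and 11.1 FPKM. S100a9, Lcn2, Mpo, S100a8, Mmp8 and Csf3r had a value in pool 1 alone, of 5.09 FPKM for S100a9, and Ly6g, Cxcr2, Elane, Camp, Ngp and Retnlg were listed at 0. The neutrophil sums were 24.5, 11.1 and 11.1 FPKM. The mast cell, basophil and eosinophil list summed to 12.97, 4.66 and 9.41 FPKM. Kit and Prg2 were its 2 detected genes of 11, at 9.06, 2.64 and 4.43 and 1.35, 1.28 and 2.41 FPKM, Hdc had 2.56, 0.737 and 2.57 FPKM, and 8 genes that include Cpa3, Mcpt4 and Fcer1a were listed at 0. The part of these other cells in the levels of shared genes, such as Ctss, Cst3, Apoe or MHC class II, was not tested.

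**Figure D5:**
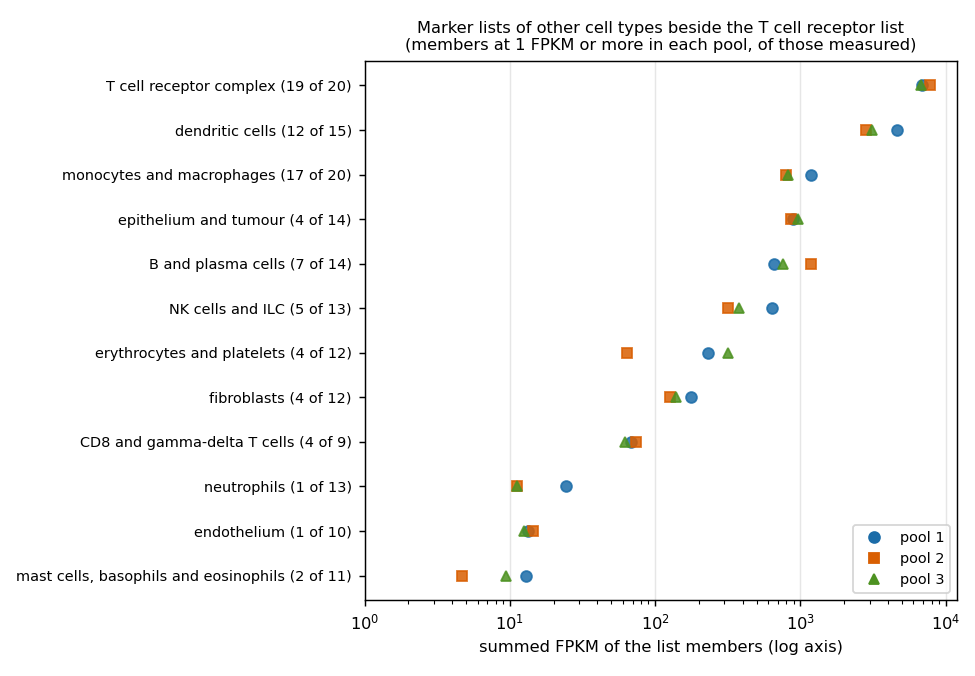
Summed FPKM (horizontal, log axis) of 11 marker lists of other cell types, with the T cell receptor list at the top, in pool 1 (circles), pool 2 (squares) and pool 3 (triangles); brackets give the members detected of those measured. Pool 1 is highest for the dendritic, macrophage and natural killer lists, pool 2 for the B cell list, and pool 2 is lowest for the red cell list.

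The 3 pools resembled each other closely for abundant genes and less so for rare ones. Over 11141 coding genes that reached 1 FPKM in at least 1 pool, log2(FPKM + 1) correlated between pools with Pearson's r of 0.948, 0.941 and 0.957, which is a description across genes that are not independent replicates. Pairs of pools shared 90, 92 and 90 of their highest 100 genes. The median coefficient of variation was 10.04% for genes at 100 FPKM or more in each pool, 15.3% for those at 10 FPKM or more and 41.8% for those with a mean between 1 and 10 FPKM. Of 5340 genes with a mean of at least 10 FPKM, 598 differed more than 2 times between the highest and the lowest pool and 39 more than 4 times. The widest were Ccl17, Gm42742, the histone gene Hist1h3c, Zfp865, Klhdc1, Coq7, Lyrm9, Slpi, Bola1 and Alkbh7. Zfp865, a zinc finger gene, had 2.33, 32.2 and 2.43 FPKM and the antiprotease gene Slpi 23.5, 55.8 and 7.73 FPKM, with pool 2 highest in both. The most even genes at 100 FPKM or more were Sub1, Eif3i, Gpx1, Gnai2, Pmaip1, Rac1, Eif4a3, Arpc3, Ndufb7 and Ndufs6. Sub1, a transcriptional coactivator, had 723, 725 and 726 FPKM and the translation factor gene Eif3i 164, 164 and 165 FPKM. Among the lists, the median coefficient of variation over members at 10 FPKM or more in each pool was 9.65% for T cell receptor genes. It was 10.7% for signalling factors and 12.1% for lineage factors. Checkpoints had 20.5%, TNF receptors 21.9%, cell cycle genes 26.1% and macrophage genes 33.4%. Endothelium and neutrophils, with 1 such gene each, had 11.6% and 14.7%. The spread fell with level, as given above, and the lists were not matched for level.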

How the data were processed

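RNA of sorted CD4+ GFP+ cells was amplified with the SMART-Seq v4 kit and made into Nextera XT libraries, per the labels' protocols. The authors deposited FPKM per Ensembl gene; per the submitters' processing notes the build was GRCm38 and the tools included RSEM 1.3.1, Cufflinks, STAR 2.6.1a, Picard and Trim Galore 0.5.0, with no role or order given. The unnormalized FPKM table was used for the 3 Mock pools, and all its sample columns were mapped. Full-length cDNA of this kind carries no strand or molecular tags, so overlapping genes and near-identical copies (histone, globin, ribosomal protein, Klra and MHC genes) are uncertain. The absolute depth is unknown from FPKM: the 3 pools summed to 634640, 678268 and 629706 FPKM over all genes. Medians of low values, scaled by transcript length, gave depth ratios of 1.08 and 1.00 for pools 2 and 3 to pool 1. These values were taken within a fixed window common to all pools, which favours ratios near 1. The relative depth of the pools is therefore not settled.

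Of 53251 rows, 1 shifted row was left out and 26 symbols that had turned into dates were restored from GENCODE M21, which held 99.8% of the gene IDs. Means, SDs and ranks were computed with Python 3.11.15, pandas 2.3.3 and numpy 2.4.6. A count of detected genes and a rank were run on simulated data in a separate function, which does not test the summaries given here. No test was made, since 1 group was described. Named were the 20 highest coding genes, the 6 highest members of each of 31 lists and members listed at 0, the 5 markers, the 10 most and 10 least even genes, and the genes of the study question. Some genes that this rule names are not reported here. Members named beyond these were chosen for their role or after their values were seen. The group and the lists were chosen with earlier results of these data known. Other thresholds, scalings, pseudocounts and pools left out were tried.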

Additional observations from a re-analysis of the deposited data

How the results depend on the processing

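How far the summaries moved with the processing depended on the summary and the setting. The count of 8835 detected coding genes ran from 6092 at a threshold of 5 FPKM to 10162 at a mean of 1 FPKM, and was 8520 in the authors' normalized table; the rank of Foxp3 ran from 1000 without pool 2 to 1146 without pool 1. The 60 detected markers of other cell types became 35 at 5 FPKM. The median level over all 698 distinct list genes, 10.6 FPKM, lay between 10.05 and 11.9 FPKM with 1 pool left out. It became 18.2 FPKM when each pool was scaled to one common coding sum, which raises every level by construction and moved 27 of 31 list medians. The mean share of the highest 100 genes, 28.0%, was 27.5% in the normalized table. The mean correlation between pools, 0.948, was 0.889 with a pseudocount of 0.1 and 0.975 with every coding gene kept. By list, the count of detected members stayed within 1.5 times for 31 of 31 lists with any pool left out, for 30 in the normalized table and for 22 at 5 FPKM. List medians did not stay within the SD over pools for 8, 4 and 3 of 31 lists without pools 1, 2 and 3. In the normalized table this held for 5 lists. These counts, and the 27 above, include the mast cell, basophil and eosinophil list, whose median stayed at 0 with an SD of 0. Values below about 1 FPKM rest on few fragments, and there a listing at 0 does not show absence. No paired analysis was possible because 1 group was described and no test was made.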

Other observations

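The V and J segments of the antigen receptors and noncoding genes were not part of any list. Over all gene types, 9947 of 53250 gene IDs were detected, which is the background for the counts below. The V segments were spread over many genes: 76 of 144 were detected, and the highest, Trbv13-2, had 112, 86.2 and 96.4 FPKM in pools 1, 2 and 3, followed by Trav7-4 with 64.3, 112 and 78.9 FPKM and Trbv16 with 65.00, 107 and 54.1 FPKM. Of the J segments, which are very short, 7 of 70 were detected. Trbj2-7 had 325, 339.6 and 315 FPKM, whereas Traj23 had 646, 1002 and 207 FPKM and Trbj2-1 470.2, 249.8 and 0 FPKM and was listed at 0 in pool 3.

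Among long intergenic noncoding genes, 128 of 5224 were detected, against 9947 of 53250 gene IDs of all types. Malat1, a nuclear-retained transcript, had 1427, 1395 and 1552 FPKM, and AW112010 had 844, 1345 and 967 FPKM with pool 2 highest. Gm26917 had 3363, 2282 and 2882 FPKM and Gm42418 550.3, 333 and 317 FPKM; both lie on chromosome 17 beside the rRNA gene CT010467.1, which at 9166, 7145 and 8223 FPKM was the highest entry of the whole table. rRNA genes held 1.51%, 1.09% and 1.38% of all FPKM and were lowest in pool 2. Small nucleolar RNA genes were led by Snord13 with 3797, 5262 and 3802 FPKM and Snord118 with 1306, 1681 and 1692 FPKM. These loci are very short, and their length-scaled levels are less certain than those of longer genes. Of 2195 miRNA genes 6 were detected, and these entries are precursor loci, so that mature miRNAs were not measured.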
